A study of Rattus norvegicus with 6 samples.

Results

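The solute carriers described here are the membrane proteins that move ions, metals, sugars, nucleotide sugars, organic acids, nucleosides and vitamins across the surface and the inner membranes of tendon cells. Of 358 rows of the deposited table whose gene name begins with Slc and a family number, 189 had a mean of at least 1 FPKM (a read level divided by gene length and library size, so that genes of unequal length can be compared) over the 6 libraries. The mitochondrial Slc25 family (34 of the 189) and 14 carriers of amino acids, iron, glucose and lactate were set aside by name, which left 141 members of 42 families among 33300 rows in all. The members were thus chosen by their mean level, which is given as a description. The rule used no difference between the groups, but the genes to set aside were named with earlier results of these data known. Of the 169 Slc rows under the minimum, 56 were listed at 0 in every library and none was tested. The members nearest the minimum were Slc15a3, a peptide and histidine carrier (mean over the 6 libraries 1.02 FPKM), Slc22a4, an organic cation carrier (1.10 FPKM), and the vesicular monoamine carrier Slc18a2 (1.11 FPKM). Just outside lay the sodium-proton exchanger Slc9b2 (0.887 FPKM), the glucose carrier Slc5a2 (0.734 FPKM) and the fructose carrier Slc2a5 (0.716 FPKM). Slc15a3 reached the minimum only through its NAC libraries and Slc22a4 only through its Control libraries. The 18 genes grouped, mainly by family number, as amino acid and peptide carriers and not set aside stayed among the members. Amino acids and peptides are not among the solutes listed above. Another 4 members are named after a carrier and are not carriers themselves.

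Rat tendon stem/progenitor cells were compared after 7 days in culture, with 3 libraries in each group. The NAC cells grew in F12 medium to which 500 uM N-acetyl-L-cysteine had been added, a thiol compound that cells can turn into cysteine, and the Control cells grew in F12 alone. The labels list the cells of both groups as mesenchymal stem cells in tenogenic differentiation, and give neither the age of the rats nor whether each library is a culture of its own. The p-values therefore speak of the scatter among these 6 libraries, which may be technical. All 7 tendon markers examined had a mean of at least 1 FPKM, with a summed level of 7751 to 8123 FPKM in NAC and 4302 to 4665 FPKM in Control. Endothelial markers summed to at most 0.603 FPKM in NAC and 0.440 FPKM in Control, and of the leukocyte markers Ptprc was listed at 0 in every library while Cd14 stood at a mean of 14.7 FPKM. The higher tendon sum was carried by Col1a1 (5453 FPKM in NAC and 2731 FPKM in Control on average) and Tnc (1618 and 1028 FPKM), the tendon markers called higher in the test below, while the tendon transcription factors did not pass (Scx, 11.6 FPKM in NAC and 12.5 FPKM in Control; Mkx, 3.90 and 5.28 FPKM). Their part in the results was not tested.

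The reads behind the values, recovered from the deposited table, came to between 13624097 and 14941949 per library in NAC and between 12487215 and 14079556 in Control. In a bulk sample fewer cells of a kind and less RNA per cell cannot be told apart. Levels follow the authors' scaling, under which the 12733 tested genes had a median log2 fold change of -0.0063. Scaled to library totals instead, that median was -0.16 and the median of the members -0.13 in place of 0.020, so each change below is relative to the bulk of genes. With library totals 43 of the 141 members passed as lower, against 3722 of the 12733 tested genes. With the authors' scaling 5 members and 346 genes did. The 43 included members of groups without a call below: 6 carriers of nucleotide sugars, 3 cation-chloride, 2 vitamin and choline, 2 phosphate and vesicular, 1 sodium-proton and 1 organic ion carrier, and 2 genes that are not carriers. Control 2 stood apart from the other libraries on the second principal component (-21.8, against -4.23 to 10.3 in the other 5).

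Solute carriers fall into families by sequence, and a family often shares a solute and a direction of transport. Some, such as the zinc importers of the Slc39 family and the zinc exporters of the Slc30 family, set the content of one metal from opposite sides. Others feed the secretory pathway: Slc35 proteins bring nucleotide sugars and the sulfate donor PAPS into the Golgi and the endoplasmic reticulum, where the sugar chains of matrix proteoglycans are built. Tendon cells, which make much collagen and proteoglycan and take much of their energy from glycolysis, also rely on lactate, proton and bicarbonate carriers at the surface.

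With NAC, 4 carriers rose and 5 fell. Slc16a14, Slc39a10, Slc45a4 and Slc41a1 were higher, and Slc27a3, Slc7a2, Slc29a3, Slc4a2 and Slc39a6 lower, at an adjusted p under 0.05 in limma on log2(FPKM + 1), adjusted after Benjamini and Hochberg across the 12733 tested genes. These 9 were 6.38% of the members, against 8.8% of all tested genes (6.08% higher and 2.72% lower). Of the 48 Slc genes over the minimum that were set aside, 8 were called higher and 1 lower. The share and balance of calls given here thus hold for the members and not for all Slc genes. Summed over the 141 members, the level was 2528.9, 2528.5 and 2514 FPKM in the 3 NAC libraries and 2562, 2526 and 2506 FPKM in the 3 Control libraries. These sums overlapped between the groups. The 3 NAC values lay wholly above or below the 3 Control values in 50 members (35.5%), 27 above and 23 below, against 32.6% of all tested genes. An unadjusted p under 0.05 in limma was reached by 41 of the 141 members, against 3355 of the 12733 tested genes (26.3%). A log2 fold change of at least 0.5 in either direction was seen in 4 members (2.84%), against 5.51% of all tested genes, and the values ran from -0.39 to 0.65 with a median of 0.020.

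**Figure D1:**
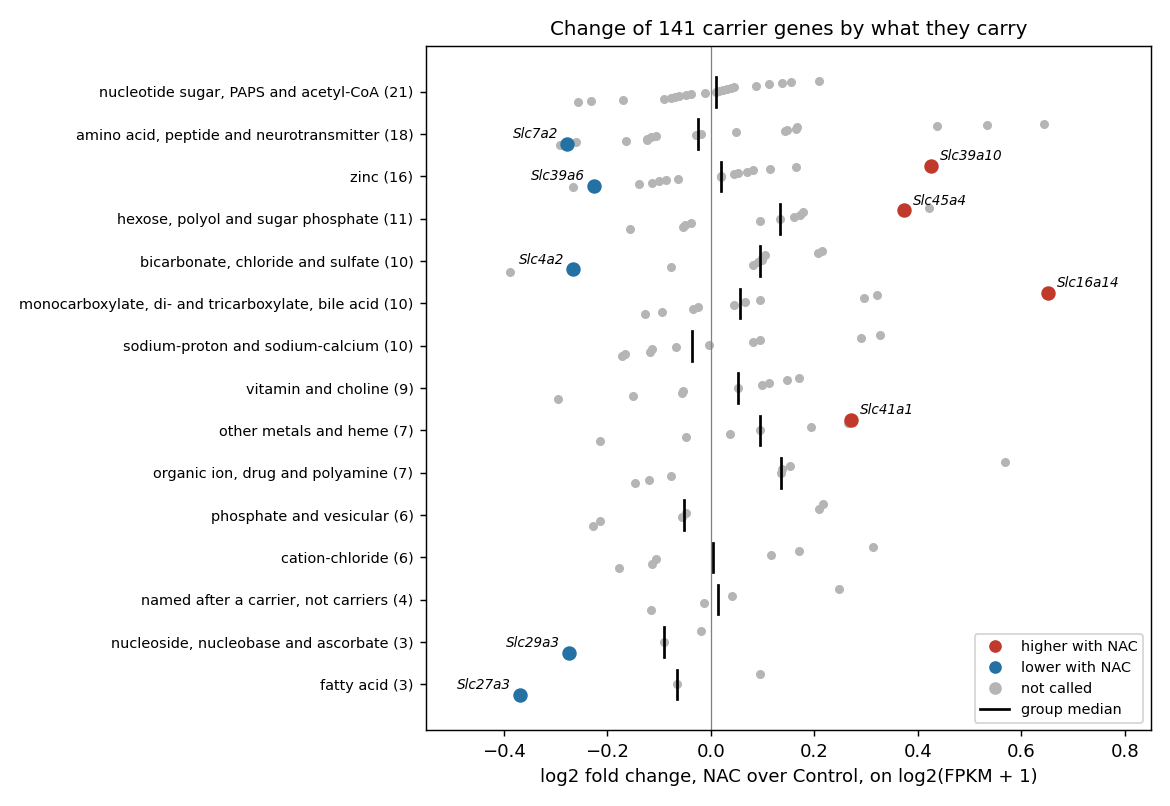
Log2 fold change of NAC over Control for each of the 141 members (points), by what they carry, with the number of genes after each name; black bars are group medians and coloured points passed the test. The 9 coloured points fall in 8 of the 15 groups, and the zinc carriers hold one of each colour.

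Among the members, levels ran from 1.02 to 147 FPKM with a median of 9.53 FPKM, near that of all tested genes (9.84 FPKM), and 13 members had a mean of at least 50 FPKM. The most abundant was Slc16a1, which carries lactate and other monocarboxylates across the cell surface. Its level was 148, 142 and 145 FPKM in NAC and 157, 142 and 146 FPKM in Control, so that the groups overlapped. The second was the heme carrier Slc48a1, at 117, 113 and 120.2 FPKM in NAC and 123, 119.6 and 119 FPKM in Control. Next came the zinc importers Slc39a1 (98.6 ± 4.30 FPKM in NAC and 107 ± 4.92 FPKM in Control; SD, n = 3 each, here and below) and Slc39a7 (96.3 ± 0.609 and 93.3 ± 2.00 FPKM), and the nucleoside carrier Slc29a1 (84.8 ± 1.14 and 90.6 ± 8.82 FPKM). None of these 5 passed the test. For Slc16a1 the 95% confidence interval of the log2 fold change ran from -0.15 to 0.08, and for Slc48a1 from -0.14 to 0.04. Over the members this interval reached 0.18 to either side of the estimate at the median, so smaller changes of a typical carrier lay within the error.

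Zinc carriers had 1 member higher, 1 lower and 14 that did not pass (8.8% of all tested genes were called). Their median log2 fold change was 0.020, against -0.0063 over all tested genes. The pair that passed, Slc39a10 (ZIP10) and Slc39a6 (ZIP6), are close relatives that import zinc at the cell surface and have been found in one complex in mouse and human cells. They went in opposite directions. Slc39a10 (ENSRNOG00000011677; chromosome 9, 60039297 to 60070552 as deposited, with the coordinates' build not stated for rat) stood at 11.5, 10.4 and 9.97 FPKM in NAC and at 7.92, 7.37 and 7.63 FPKM in Control. Its lowest NAC value lay above its highest Control value, and it rose by 0.43 ± 0.0675 (log2 fold change, SE; limma adjusted p = 0.0143). Slc39a6 (ENSRNOG00000028703; chromosome 18, 16522982 to 16543992) stood at 54.1, 52.7 and 52.7 FPKM in NAC and 63.6, 60.1 and 63.3 FPKM in Control. All 3 NAC values lay below the Control values, and it fell by 0.23 ± 0.0386 on the log2 scale (adjusted p = 0.0187). Slc39a6 remained the more abundant, at 53.2 ± 0.838 FPKM in NAC and 62.3 ± 1.92 FPKM in Control, against 10.6 ± 0.807 and 7.64 ± 0.275 FPKM for Slc39a10. The Slc39a10 call was lost without NAC 1, NAC 2 or Control 3 (0.37 to 0.47 over the 6 left-out libraries) and that of Slc39a6 when any library other than Control 2 was removed (-0.25 to -0.21).

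No other zinc carrier among the 16 members passed, although the groups did not overlap in 6 of the 16 (37.5%, against 32.6% of all tested genes). The Slc39 importer Slc39a14, set aside by name, did pass as lower. It stood at 57.1, 57.9 and 58.6 FPKM in NAC and 71.2, 70.6 and 78.0 FPKM in Control (log2 fold change -0.33, limma adjusted p = 0.0108). Slc39a5, the scarcest zinc importer among the members, stood at 3.05, 2.24 and 2.67 FPKM in NAC and 3.24, 3.44 and 3.45 FPKM in Control. Its log2 fold change of -0.27 (adjusted p = 0.165) lay further from 0 than that of Slc39a6. The exporter Slc30a4 stood at 15.2, 15.2 and 15.6 FPKM in NAC and 13.3, 14.5 and 12.98 FPKM in Control (0.16, adjusted p = 0.115). Neither overlapped between the groups. Slc39a13, an importer of the secretory pathway whose loss in people causes a connective tissue disorder, stood at 69.0 ± 0.863 FPKM in NAC and 68.1 ± 3.40 FPKM in Control. The endoplasmic reticulum zinc channel Slc39a7 had a log2 fold change of 0.05 (adjusted p = 0.440), and Slc39a1 one of -0.11 (adjusted p = 0.210). Summed over the 10 Slc39 importers among the members, the level was 371, 370.3 and 362 FPKM in NAC and 386, 372 and 379 FPKM in Control. These sums leave out Slc39a14 and were lower in each NAC library than in any Control library. The sums weigh the abundant genes most. Of the 10 importers 5 had a log2 fold change above 0 and 5 below, with a median of -0.021. Over the 6 Slc30 exporters the sum was 97.1, 102.9 and 96.9 FPKM in NAC and 94.7, 97.3 and 93.8 FPKM in Control, where the groups overlapped. The most abundant exporter was Slc30a9, at 27.5 ± 1.93 FPKM in NAC and 26.2 ± 1.42 FPKM in Control. Slc30a1, the exporter of the cell surface whose gene is switched on by zinc through the factor MTF1, stood at 11.2, 10.2 and 9.18 FPKM in NAC and 10.9, 10.7 and 11.3 FPKM in Control, without a call (adjusted p = 0.450).

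**Figure D2:**
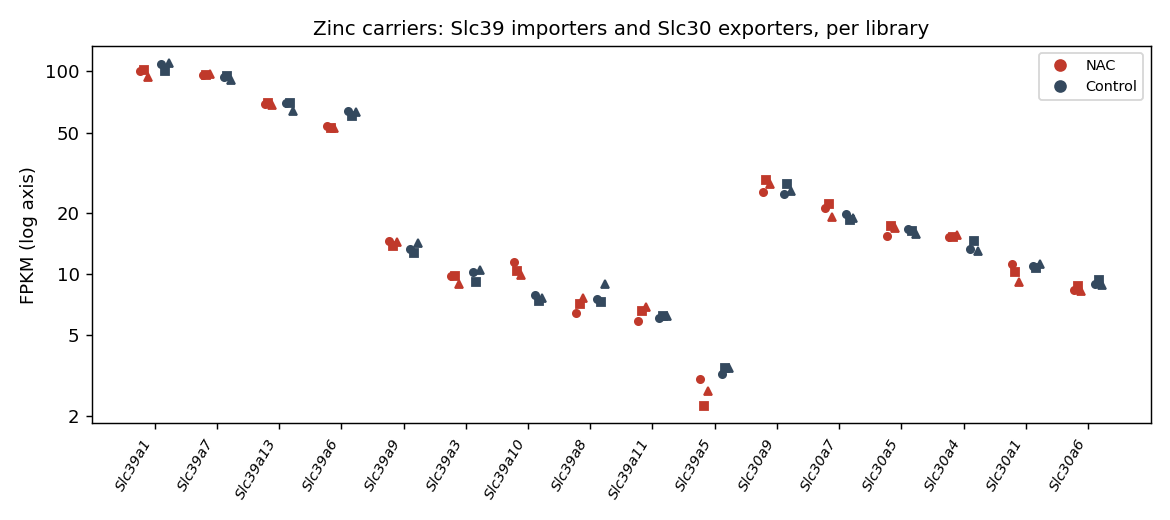
Level of the 16 zinc carriers in each library (FPKM, log axis; circle, square and triangle are libraries 1, 2 and 3), importers on the left and exporters on the right, each ordered by mean level. Slc39a10 lies higher and Slc39a6 lower in NAC, the 2 of these 16 that passed. Slc39a5 also lies lower and Slc30a4 higher in every NAC library.

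Cells buffer zinc with metallothioneins, small cysteine-rich proteins that also react with oxidants. Mt2A, the most abundant in the table, stood at 698, 648 and 720.2 FPKM in NAC and 821, 728 and 794 FPKM in Control (adjusted p = 0.116). Each of its NAC values lay below each Control value. Of a pair of rows both named Mt1, whose reads may be shared between near-identical copies, the less abundant stood at 14.95, 12.7 and 16.1 FPKM in NAC and 21.3, 23.0 and 28.0 FPKM in Control and fell by 0.69 ± 0.120 on the log2 scale (adjusted p = 0.01997). That call was lost without NAC 1 (-0.71) or NAC 2 (-0.59). The other Mt1 row, at 72.2 ± 13.6 FPKM in NAC and 99.6 ± 10.9 FPKM in Control, did not pass (adjusted p = 0.0864). Mtf1 itself lay under the minimum, at 0.293 ± 0.0761 and 0.316 ± 0.107 FPKM.

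The upstream sequences of these zinc genes are shown because the metallothioneins and Slc30a1 are textbook targets of MTF1, which binds the metal response element, and the called importers can be set beside them. Each is the 250 bases before the gene's start in RefSeq (rat build GRCr8), 5′ to 3′ on the gene's strand, with matches to the element's core, TGCACNC or TGCGCNC on either strand, in capitals.
Mt2A: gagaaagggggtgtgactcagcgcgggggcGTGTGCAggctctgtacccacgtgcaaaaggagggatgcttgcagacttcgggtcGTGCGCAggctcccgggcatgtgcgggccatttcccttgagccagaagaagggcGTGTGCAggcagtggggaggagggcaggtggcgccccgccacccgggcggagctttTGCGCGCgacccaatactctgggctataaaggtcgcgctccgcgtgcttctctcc
Slc30a1: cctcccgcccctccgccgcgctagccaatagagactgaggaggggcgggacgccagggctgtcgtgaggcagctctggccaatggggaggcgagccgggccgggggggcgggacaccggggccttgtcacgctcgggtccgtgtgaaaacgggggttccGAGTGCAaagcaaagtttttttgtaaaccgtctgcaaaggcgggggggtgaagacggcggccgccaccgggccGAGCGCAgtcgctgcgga
Slc39a10: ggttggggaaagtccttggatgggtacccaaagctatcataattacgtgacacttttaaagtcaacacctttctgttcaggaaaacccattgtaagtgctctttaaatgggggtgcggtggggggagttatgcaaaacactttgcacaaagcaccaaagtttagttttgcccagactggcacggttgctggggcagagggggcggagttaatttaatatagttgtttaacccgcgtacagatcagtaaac
Slc39a6: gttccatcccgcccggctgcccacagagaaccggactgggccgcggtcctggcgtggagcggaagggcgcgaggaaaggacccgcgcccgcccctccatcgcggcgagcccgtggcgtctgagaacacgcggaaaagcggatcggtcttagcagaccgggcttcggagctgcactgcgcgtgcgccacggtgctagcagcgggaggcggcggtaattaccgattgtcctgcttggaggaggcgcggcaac
The Mt2A sequence (chr19:10838709-10838958, minus strand) held 4 matches and that of Slc30a1 (chr13:106021769-106022018, plus strand) 2. Those of Slc39a10 (chr9:62405183-62405432, plus strand) and Slc39a6 (chr18:16160164-16160413, minus strand) held none, which says only that these letters are not in these windows. Among zinc carriers that were not called, Slc39a7 held 4 matches, and Slc39a13, Slc39a11, Slc30a4 and Slc30a5 held 2 each. The number of matches thus does not set Mt2A and Slc30a1 apart. Of 27456 promoters of this length from RefSeq, 21.2% held at least 1 match and 5.13% held 2 or more. At least 1 was held by 35 of the 108 members found there and 7 of 15 zinc carriers. Among the 35 is Slc35e1, found there under the name Med26, so its window may not be that of the carrier.

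Among 7 carriers of other metals and heme 1 rose and none fell (8.8% of all tested genes were called). The member that passed was Slc41a1, which exports magnesium across the cell surface. Slc41a1 (ENSRNOG00000042320; chromosome 13, 48607308 to 48627999) stood at 32.7, 30.1 and 30.5 FPKM in NAC and 26.97, 24.3 and 25.6 FPKM in Control, and rose by 0.27 ± 0.0556 (log2 fold change, SE; limma adjusted p = 0.0328). All 3 NAC values lay above the Control values. The call did not survive the removal of any 1 library (0.23 to 0.31) and with library totals (0.10). The remaining Slc41 carriers, named after their values were seen, lay higher in NAC in each library without passing (32.6% of all tested genes did not overlap). Slc41a2 stood at 20.5, 21.7 and 22.0 FPKM in NAC and 17.01, 19.7 and 19.2 FPKM in Control (adjusted p = 0.115), and Slc41a3 at 7.08, 6.91 and 8.30 FPKM in NAC and 5.26, 6.32 and 6.47 FPKM in Control (adjusted p = 0.149). The copper importer Slc31a1 stood at 24.5, 24.4 and 24.3 FPKM in NAC and 22.9, 24.1 and 24.3 FPKM in Control (0.04, limma adjusted p = 0.611). Its relative Slc31a2 lay lower in each NAC library without passing. It stood at 11.6, 11.3 and 9.94 FPKM in NAC and 14.5, 12.4 and 11.9 FPKM in Control (-0.21, adjusted p = 0.193).

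Among carriers of monocarboxylates, carboxylates and bile acids 1 of 10 rose and none fell (8.8% of all tested genes were called). Their median log2 fold change was 0.056. Slc16a14 (ENSRNOG00000017072; chromosome 9, 92503597 to 92530938), a little-studied relative of the lactate carriers, had the highest fold change of the 141 members on the log2(FPKM + 1) scale, though not in the ratio of mean FPKM, where the scarcer Slc15a3 (2.15) and Slc43a3 (2.07) lay above it. It stood at 3.59, 3.25 and 2.91 FPKM in NAC and 1.74, 1.46 and 1.92 FPKM in Control, on a mean of 229.7 reads in NAC and 125 in Control. The NAC mean was 1.90 times the Control mean in FPKM, and on log2(FPKM + 1), which shrinks scarce genes, the difference was 0.65 ± 0.112 (SE; limma adjusted p = 0.0190), with no overlap. The call was lost without NAC 1, NAC 2 or Control 1 (0.59 to 0.71). Slc16a11 and the pyruvate and lactate carrier Slc16a7 also lay higher in every NAC library without passing: 2.52 ± 0.267 FPKM in NAC against 1.81 ± 0.0972 FPKM in Control (adjusted p = 0.104), and 12.6 ± 0.432 FPKM in NAC against 10.1 ± 1.00 FPKM in Control (adjusted p = 0.0614). Slc16a7 did pass with voom (0.33, adjusted p = 0.0321) and with a minimum mean of 5 FPKM (adjusted p = 0.0464). Monocarboxylate carriers reach the surface in complex with the glycoprotein basigin. Its gene, Bsg, stood at 738, 746 and 729 FPKM in NAC and 626, 638 and 603 FPKM in Control and rose by 0.25 ± 0.0356 (log2, adjusted p = 0.0112). The Bsg call was lost without NAC 1 (0.24) or NAC 2 (0.24), with library totals (0.07) and with quantile normalization (0.03).

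**Figure D3:**
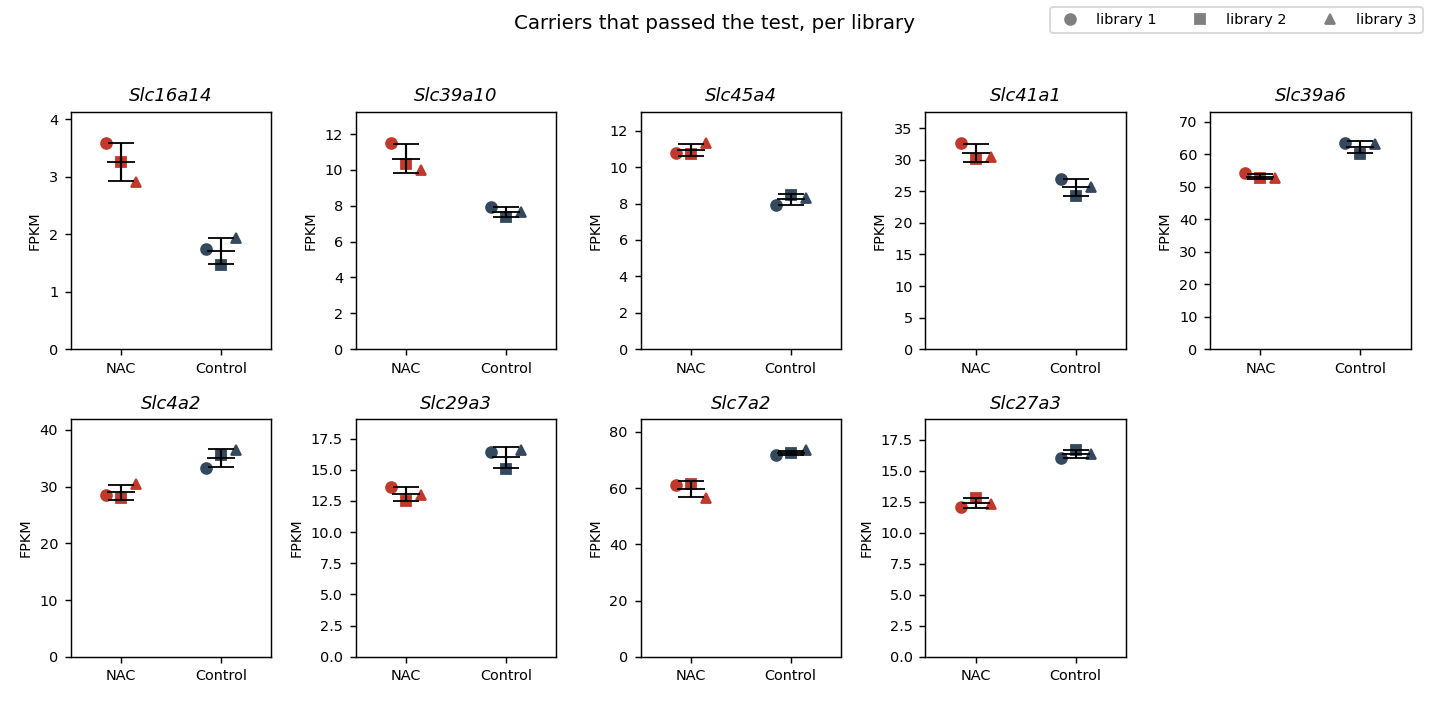
Level in each library (FPKM, axes from 0) of the 9 members that passed the test, NAC left of Control; black bars are the mean and SD of 3 libraries. In each of the 9 the 3 NAC points lie wholly on one side of the 3 Control points.

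The sugar carriers had 1 of 11 members higher and none lower (8.8% of all tested genes were called). Their median log2 fold change was 0.13. Slc45a4 (ENSRNOG00000007818; chromosome 7, 114821971 to 114848414), of a family of proton-coupled sugar carriers, stood at 10.8, 10.7 and 11.3 FPKM in NAC and 7.92, 8.46 and 8.31 FPKM in Control. It rose by 0.37 ± 0.0534 (log2 fold change, SE; limma adjusted p = 0.0108), and the call held in each of the 16 alternative settings of the fit that were tried (0.22 to 0.41, adjusted p 0.00371 to 0.0482). The insulin-responsive glucose carrier Slc2a4 was scarce, at 2.44, 1.67 and 2.19 FPKM in NAC and 1.25, 1.60 and 1.09 FPKM in Control. Its groups did not overlap, and it did not pass (0.42, adjusted p = 0.128). The abundant sugar carriers were close between the groups: Slc37a3, of the sugar phosphate family, at 37.2 ± 0.774 FPKM in NAC and 34.8 ± 2.16 FPKM in Control, and the glucose carrier Slc50a1 at 30.04 ± 2.15 and 27.3 ± 1.41 FPKM. Hexokinases, which trap glucose after entry, were both tested and neither passed (Hk1, 55.03 ± 0.873 FPKM in NAC and 57.97 ± 1.82 FPKM in Control; Hk2, 26.1 ± 0.902 and 25.3 ± 1.47 FPKM).

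The largest group, 21 genes of nucleotide sugar, PAPS and acetyl-CoA transport, had no call in either direction, with 3 members at an unadjusted p under 0.05 in limma none called with limma voom on the recovered reads and 6 called lower with library totals. Its median log2 fold change was 0.0095 and its range -0.26 to 0.21. Slc35b1, an ATP carrier of the endoplasmic reticulum, stood at 46.5, 52.3 and 54.6 FPKM in NAC and 52.01, 53.4 and 51.8 FPKM in Control. The PAPS carrier Slc35b2, needed to sulfate glycosaminoglycans, stood at 40.9, 41.2 and 42.1 FPKM in NAC and 44.7, 38.8 and 39.6 FPKM in Control (log2 fold change 0.02, 95% confidence interval -0.12 to 0.16). Both overlapped between the groups. The lowest p of the group belonged to Slc35a1, the carrier of CMP-sialic acid, at 11.8, 13.02 and 13.97 FPKM in NAC and 15.6, 15.7 and 14.7 FPKM in Control (-0.23, adjusted p = 0.0892), a gene that overlaps Rars2 on the other strand. Of 12 enzymes that make nucleotide sugars 1 rose and none fell (8.8% of all tested genes were called). This was Gmppb, which makes GDP-mannose (15.7 ± 0.779 FPKM in NAC and 12.9 ± 0.651 FPKM in Control, log2 fold change 0.27, limma adjusted p = 0.0409). The Gmppb call was lost with any 1 library removed (0.23 to 0.31), with library totals (0.10), without the filter on low values (adjusted p = 0.0645) and without the trend (adjusted p = 0.0627). Neither of the enzymes that make PAPS passed (Papss1 and Papss2, adjusted p = 0.946 and 0.465).

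Bicarbonate, chloride and sulfate carriers had 1 of 10 members lower and none higher in limma on log2(FPKM + 1), where 8.8% of all tested genes were called. Slc4a2 (ENSRNOG00000014347; chromosome 4, 7264683 to 7281223), which exchanges chloride for bicarbonate and so lowers the pH of the cell, stood at 28.5, 28.03 and 30.5 FPKM in NAC and 33.3, 35.5 and 36.4 FPKM in Control. It fell by 0.27 ± 0.0525 on the log2 scale (limma adjusted p = 0.0293), with no overlap. The call was lost without NAC 1, NAC 2, Control 2 or Control 3 (-0.30 to -0.24). Slc4a7, which brings sodium and bicarbonate in, lay higher in NAC in each library, at 16.01, 17.3 and 16.5 FPKM against 13.9, 15.1 and 13.8 FPKM in Control (0.21, adjusted p = 0.0673), and passed without Control 2 (0.25) and with voom (0.23). Slc26a8, an anion carrier best known from the testis, had the lowest log2 fold change of all members, at 1.27, 1.27 and 1.01 FPKM in NAC and 2.11, 1.88 and 1.59 FPKM in Control (-0.39, adjusted p = 0.110). Carbonic anhydrases supply the bicarbonate. Of 3 tested 1 rose (8.8% of all tested genes were called). This was Car9, a surface enzyme, at 61.1, 65.9 and 61.4 FPKM in NAC and 47.5, 51.6 and 47.1 FPKM in Control (0.36, limma adjusted p = 0.0112). The Car9 call was lost without NAC 2 (0.32).

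None of the 6 cation-chloride carriers passed (3 at an unadjusted p under 0.05 in limma, none called with voom), and the groups did not overlap in 5 of them, 2 higher and 3 lower (32.6% of all tested genes did not overlap). The potassium-chloride carriers went both ways. Slc12a4 stood at 51.1, 52.01 and 51.4 FPKM in NAC and 54.5, 57.3 and 54.8 FPKM in Control (-0.11, adjusted p = 0.128), while Slc12a7 stood at 8.77, 9.23 and 9.60 FPKM in NAC and 7.59, 8.63 and 7.99 FPKM in Control (0.17, adjusted p = 0.160). Slc12a5, best known from neurons, stood at 3.60 ± 0.543 FPKM in NAC and 2.68 ± 0.225 FPKM in Control (adjusted p = 0.137). Of the kinases that control these carriers Wnk1, Stk39 and Oxsr1 were tested and did not pass (adjusted p 0.160 to 0.645).

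Sodium-driven exchangers use the gradient that the sodium-potassium pump builds. None of their 10 members passed (3 at an unadjusted p under 0.05 in limma; voom called Slc9a5), and their median log2 fold change was -0.036. Slc9a5, a sodium-proton exchanger, stood at 4.49, 4.11 and 4.07 FPKM in NAC and 2.99, 3.67 and 3.17 FPKM in Control (0.29, adjusted p = 0.0948). Slc9a8, of the Golgi, lay lower in each NAC library (10.01 ± 0.504 FPKM in NAC and 11.4 ± 0.557 FPKM in Control, adjusted p = 0.132), and the mitochondrial sodium-calcium exchanger Slc8b1 overlapped (15.8 ± 0.956 and 14.8 ± 0.642 FPKM). Of 8 tested pumps of sodium, calcium and copper 1 rose and none fell (8.8% of all tested genes were called). This was Atp1b1, a beta subunit of the sodium-potassium pump, at 15.2, 17.02 and 14.6 FPKM in NAC and 5.94, 7.34 and 4.99 FPKM in Control, 1.24 ± 0.125 higher on the log2 scale (SE; adjusted p = 0.00302). Atp1b3, a more abundant beta subunit, lay higher in every NAC library without passing, at 175 ± 5.35 FPKM in NAC and 149.6 ± 9.55 FPKM in Control (adjusted p = 0.0513).

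In several carriers Control 2 lay well above the other Control libraries. The surface sodium-calcium exchanger Slc8a1 stood at 8.73, 8.41 and 8.73 FPKM in NAC and 5.92, 8.32 and 6.002 FPKM in Control (0.33, adjusted p = 0.144). Without Control 2 its log2 fold change was 0.47, and it passed (adjusted p = 0.0107). The drug exporter Slc47a1 stood at 5.95, 4.71 and 4.31 FPKM in NAC and 2.75, 4.26 and 2.27 FPKM in Control (0.57, adjusted p = 0.118) and also passed without it (0.77, adjusted p = 0.03197). The phosphate importer Slc20a2 stood at 11.3, 13.1 and 11.8 FPKM in NAC and 8.97, 12.9 and 9.20 FPKM in Control (0.22, adjusted p = 0.355) and passed likewise (0.37, adjusted p = 0.0371). Its more abundant relative Slc20a1 stood at 54.3, 61.4 and 63.7 FPKM in NAC and 61.6, 88.0 and 63.4 FPKM in Control (-0.23, adjusted p = 0.348), and without Control 2 its value was -0.065. With all libraries, none of the 6 phosphate and vesicular carriers passed in limma, 0 had an unadjusted p under 0.05 and voom called none. The lowest p among them belonged to Slc18b1, a vesicular polyamine carrier, at 4.64, 5.04 and 5.98 FPKM in NAC and 5.85, 6.48 and 6.25 FPKM in Control (-0.21, adjusted p = 0.204).

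**Figure D4:**
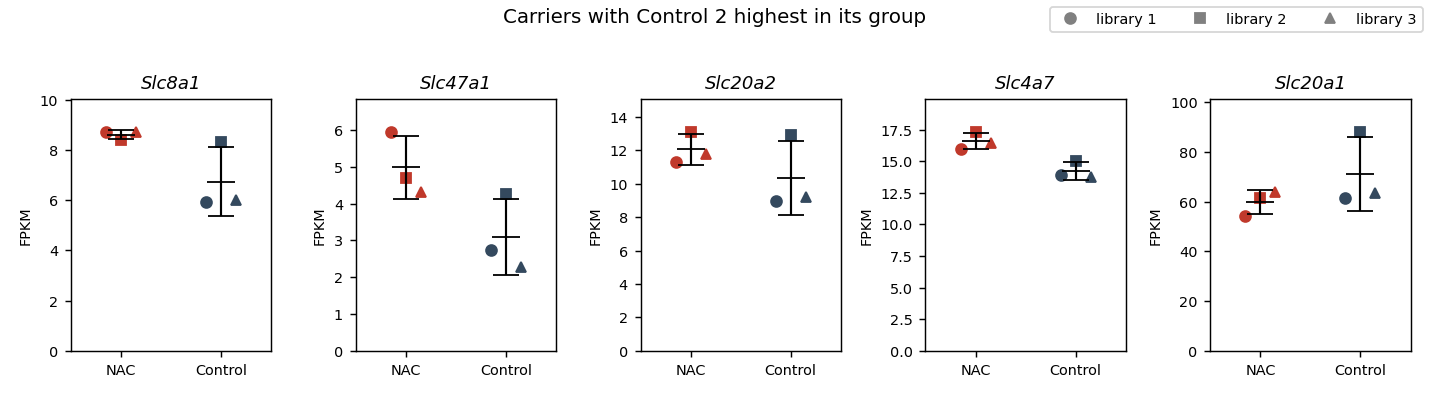
Level in each library (FPKM, axes from 0) of 5 members, NAC left of Control; squares are library 2 of each group and black bars the mean and SD of 3 libraries. The Control 2 square lies above the other Control points in each, up to 88.0 FPKM for Slc20a1.

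Falls were also found in the small groups of fatty acid and nucleoside carriers. Slc27a3 (ENSRNOG00000015421; chromosome 2, 189760747 to 189765415), of the fatty acid carriers, a protein that links long-chain fatty acids to coenzyme A, stood at 12.1, 12.8 and 12.4 FPKM in NAC and 16.03, 16.6 and 16.3 FPKM in Control. It fell by 0.37 ± 0.0466 on the log2 scale (limma adjusted p = 0.00687), the lowest p of the 141 members. The groups did not overlap, and the call held in each of the 16 alternative settings of the fit (-0.53 to -0.35, adjusted p 0.00239 to 0.0386). The relatives Slc27a1 (29.9 ± 0.443 FPKM in NAC and 31.4 ± 2.44 FPKM in Control) and Slc27a4 (20.8 ± 0.503 and 19.4 ± 1.17 FPKM) overlapped. Slc29a3 (ENSRNOG00000000568; chromosome 20, 30287424 to 30327361), a nucleoside carrier of lysosomes, stood at 13.65, 12.5 and 13.01 FPKM in NAC and 16.4, 15.05 and 16.6 FPKM in Control. It fell by 0.27 ± 0.0581 (adjusted p = 0.0359), a call lost when any library other than Control 2 was removed (-0.31 to -0.24). The surface nucleoside carrier Slc29a1 stood at 85.2, 85.6 and 83.5 FPKM in NAC and 100.5, 83.6 and 87.7 FPKM in Control, without a call (adjusted p = 0.452).

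In the amino acid and peptide carriers kept among the members 1 of 18 fell and none rose in limma (8.8% of all tested genes were called). With voom Slc38a10 (0.15) and Slc6a9 (0.52) also passed as higher and the lysosomal carrier Slc36a1 (-0.36) as lower. These counts leave out the carriers set aside by name. Of those, Slc38a2, Slc1a5, Slc38a4, Slc1a4, Slc6a6 and Slc7a5 passed as higher (limma adjusted p 0.00358 to 0.0473). Slc3a2, Slc38a1, Slc7a6 and Slc7a1, likewise set aside, did not pass. Slc7a2 (ENSRNOG00000011016; chromosome 16, 54460067 to 54513349), which imports arginine and lysine, stood at 61.3, 61.5 and 56.5 FPKM in NAC and 71.9, 72.5 and 73.4 FPKM in Control. It fell by 0.28 ± 0.0439 on the log2 scale (limma adjusted p = 0.0142), with no overlap. The call was lost without NAC 1, Control 1 or Control 3 (-0.30 to -0.24). Slc38a10, the most abundant of the group, lay higher in each NAC library, at 87.4, 84.6 and 82.7 FPKM against 78.1, 74.8 and 76.6 FPKM in Control (0.15, adjusted p = 0.0599). The glycine carrier Slc6a9 did too, at 6.76, 7.63 and 5.52 FPKM against 4.35, 4.42 and 5.07 FPKM in Control (0.44, adjusted p = 0.0655), and passed without NAC 3 (0.55). Scarce members had wide spreads: Slc43a3 stood at 2.90, 2.77 and 1.51 FPKM in NAC and 1.32, 0.716 and 1.42 FPKM in Control (0.64, adjusted p = 0.123), and Slc15a3 at 0.850, 1.70 and 1.62 FPKM in NAC and 0.871, 0.768 and 0.303 FPKM in Control (0.53, adjusted p = 0.182). Slc15a3 overlaps Tmem132a on the other strand (mean 38.0 FPKM), so its reads may include some of that gene.

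No vitamin, choline or organic ion carrier passed. Among 9 vitamin and choline carriers, 2 of them at an unadjusted p under 0.05 in limma, Slc19a2, which imports thiamine, stood at 4.75, 4.30 and 4.50 FPKM in NAC and 5.60, 6.36 and 5.38 FPKM in Control (-0.30, adjusted p = 0.0689). It was called with voom (-0.35). The choline carriers Slc44a2 and Slc44a1 stood at 41.3 ± 1.91 and 38.2 ± 1.58 FPKM in NAC, against 37.3 ± 3.52 and 35.8 ± 3.76 FPKM in Control. Among 7 organic ion carriers, 2 of them at an unadjusted p under 0.05 and none called with voom, Slc22a17, described in other tissues as a receptor for lipocalin 2, stood at 28.8 ± 0.860 FPKM in NAC and 26.1 ± 1.08 FPKM in Control (0.14, adjusted p = 0.125). Slc22a18 stood at 15.1 ± 0.408 and 13.8 ± 2.66 FPKM. Of the 4 genes that are not carriers none passed: the scaffold Slc9a3r1 stood at 69.0 ± 1.38 FPKM in NAC and 69.7 ± 3.89 FPKM in Control, its relative Slc9a3r2 at 11.2 ± 0.811 and 9.23 ± 0.508 FPKM (adjusted p = 0.0782), and Slc7a6os at 12.8 ± 0.466 and 12.4 ± 0.598 FPKM. One of the 4 reached an unadjusted p under 0.05 in limma, and voom called none.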

How the data were processed

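The authors deposited one table of FPKM values per gene for 3 NAC and 3 Control libraries. Its columns for the Control libraries carry a letter that the labels do not explain and were assigned by elimination. Per the labels' protocols and the submitters' processing notes, the build named is a mouse one although the gene identifiers are rat, so coordinates are printed as the deposited table gives them. FPKM multiplied by gene length gave whole reads for 100% of values (tolerance 0.01), and the authors' scaling total was 0.916 ± 0.00812 of the recovered reads in NAC and 1.03 ± 0.0122 in Control (SD, n = 3 each).

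Genes with a mean of at least 1 FPKM (12733) were fitted on log2(FPKM + 1) with limma 3.58.1 in R 4.3.3, moderated with a mean-variance trend. P-values were adjusted by the Benjamini-Hochberg method over all 12733, and a call is an adjusted p under 0.05. Fold changes on this scale understate the change of scarce genes. Sums, figures and motif matches used Python 3.11.15 (numpy 2.4.6, pandas 2.3.3) and were drawn by matplotlib 3.10.9. The fit was tested on simulated data.

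The members, carrier groups, partner genes and markers were chosen with earlier results of these data known. Named genes are the members that passed, the 15 most abundant, the 2 most abundant and the 1 with the lowest p in each carrier group, the 10 with the largest fold among those not called, the partner genes that passed, and the 3 on either side of the minimum. Of these, 1 is not reported here. Slc16a7, Slc30a1, Slc30a4, Slc30a5, Slc30a9, Slc31a1, Slc31a2, Slc35e1, Slc36a1, Slc39a5, Slc39a11, Slc39a14, Slc41a2, Slc41a3 and Slc51b were named after their values were seen. So were the set-aside Slc1a4, Slc1a5, Slc3a2, Slc6a6, Slc7a1, Slc7a5, Slc7a6, Slc38a1, Slc38a2 and Slc38a4. Alternatives were another pseudocount, other filters, 3 other scalings, limma without trend or robust, voom on recovered reads, a replicate block, a stricter threshold and leaving out each library.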

Additional observations from a re-analysis of the deposited data

How the results depend on the processing

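With 4 members higher and 5 lower as reported (774 and 346 of all tested genes), scaling to library totals gave 43 members lower, and 467 genes higher and 3722 lower in all; the share of calls that were higher was 11.1% there, 69.1% as deposited and 58.2% after quantile normalization. Without the trend 2 members and 206 genes were lower, without the filter 207 genes were lower, and voom called 9 members and 1054 genes higher. At an adjusted p under 0.01, 0 members were higher and 1 lower (238 and 32 of all genes); at an unadjusted p under 0.05 these were 25 and 16. Leaving out 1 library gave 1 to 7 members higher and 1 to 4 lower, and 264 to 859 genes higher and 51 to 347 lower. The 7 came without Control 2. Of 35 genes under the naming rule above 0, 14 turned negative with library totals, among them Slc39a13 (-0.15) and Slc39a7 (-0.13), which then passed as lower (limma adjusted p = 0.0339 and 0.0284). The causes were not tested.

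Same-numbered libraries did not pair (correlations of their deviations 0.0627, 0.0589 and -0.0502). With a replicate block 3 members were higher and 1 lower, and 466 genes were higher and 110 lower; the calls of Slc16a14, Slc4a2, Slc7a2, Slc29a3, Slc39a6 and Gmppb were lost (limma adjusted p 0.0509 to 0.0975).

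Calls of Slc4a2, Slc29a3, Slc39a6, Slc41a1 and Gmppb were lost without the trend, and those of Slc29a3, Slc41a1 and Gmppb without the filter. Of the 9 members called, only Slc27a3 and Slc45a4 were called in each of the 16 alternatives to the fit. Counting limits the scarce members most, down to 6 reads in a library for Slc51b.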
